A study of Danio rerio with 3 samples.

Results

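The class that the study's annotation names macrophages was examined in zebrafish larvae, through the pair of tables deposited for it in each of 3 single-cell libraries. One table of a pair gives, for every gene, the reads of the class and the rate of each type of base substitution in them, and the other covers labelled transcripts only. The members are the genes with 250 or more reads in the class. There were 890 such genes in the library of cells that were only dissociated, 971 in that of cells also sorted by flow cytometry (FACS), and 1232 in that of cells sorted and then kept on ice. Over all cell types of a library, 8595, 7795 and 8582 genes reached that number. The class held 1.47%, 1.80% and 2.42% of all reads in the tables, and 779 genes reached the minimum in all 3 libraries.

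Wild-type larvae at 48 h post fertilisation, 10 pooled per suspension, were dissociated for 30 min at 37°C in an enzyme solution with 10 mM 4-thiouridine (4sU), a modified uridine taken up into newly made RNA. Iodoacetamide treatment of the methanol-fixed cells then made a 4sU base read as C in place of T, so that T-to-C substitutions mark transcripts made after the 4sU was added. The dissociation library was fixed directly, and both other suspensions passed a sorter first, whose gate left out only debris and events of unusual scatter. Cooled receiving tubes for the sorted cells also held 10 mM 4sU, whereas the sorting buffer and the further 30 min on ice of the remaining suspension did not. Each condition had 1 library and no unlabelled library was analysed here, so no test between libraries was possible and no p-value is given. All 12 cell types with a table in every library came from the same suspensions and are not replicates of each other. In summed tables, fewer cells of a type and less RNA per cell cannot be told apart. Intervals are given at 95% and cover counting error only, except those of medians over genes, which cover the choice of genes. Copies made by PCR are not independent molecules.

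Macrophages are phagocytes of the innate immune system that take up dying cells, red blood cells and microbes, and digest them in lysosomes. In zebrafish larvae they are already found in blood, skin and brain at this age, and the genes mpeg1.1 and mfap4 are widely used to mark them. They also sense tissue damage, to which they respond with fast transcription of transcription factors, chemokines and inhibitors of inflammatory signalling.

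The 4 marker genes were read almost only in this class. The transcript of mfap4, a secreted matrix-associated glycoprotein, stood at 2514, 2149 and 2849 RPM (reads of a gene per 1000000 reads of the table) in the dissociation, the FACS, and the FACS and ice library. No other shared cell type exceeded 8.46 RPM. The perforin-like gene mpeg1.1 was at 142, 157 and 94.5 RPM, and at most at 0.472 RPM elsewhere. The actin-binding genes lcp1 and coro1a, which are active in leukocytes in general, were at 179, 126 and 147 RPM and at 665, 590 and 703 RPM. Only coro1a had a second site, the pigment cells, with 62.6, 60.9 and 64.3 RPM. Summed over the 4 genes, the class held 89.1%, 95.3% and 95.6% of all their reads, and stood 55.6-fold (50.8 to 61.0), 47.1-fold (41.4 to 53.8) and 58.6-fold (52.4 to 65.8) above the next type. The study named its cell types by marker gene expression, so high values of marker genes in the class can follow from the naming itself. The intervals do not cover this. In all 3 libraries, 779 genes reached the read minimum in the class, and that minimum favours genes high in it. Of these genes, 77 were 2-fold or more above every other shared type in each library. By the same measure 42 were 10-fold or more and 17 were 100-fold or more above.

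**Figure D1:**
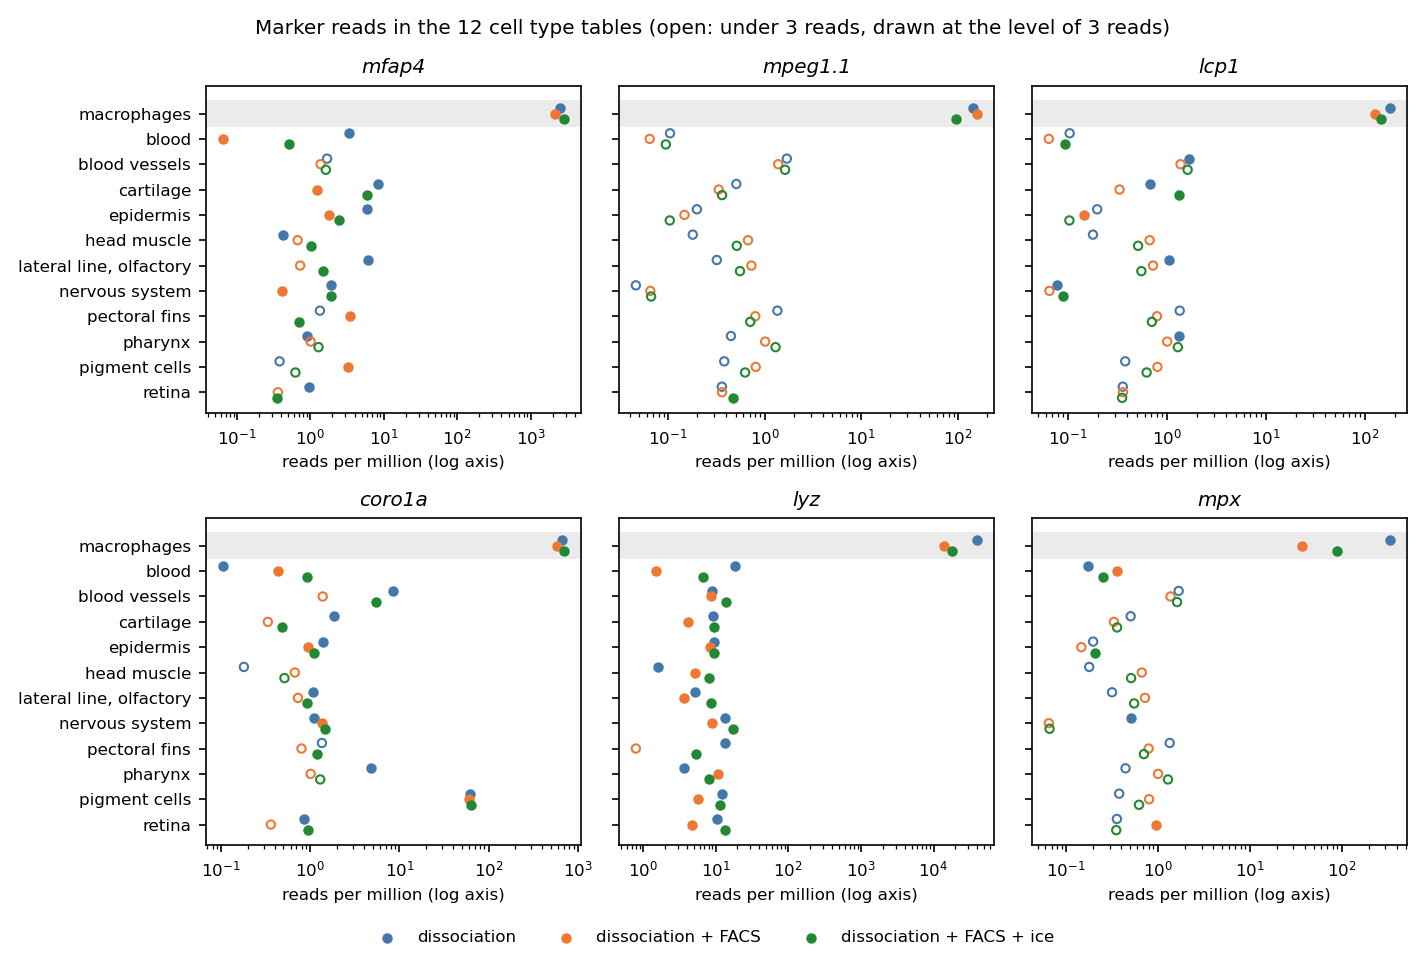
RPM (log axis) of mfap4, mpeg1.1, lcp1, coro1a and of the neutrophil genes lyz and mpx in the 12 shared cell types, 1 point per library; open points had under 3 reads and are drawn at the level of 3 reads. All 6 genes, the neutrophil genes included, were highest in the class named macrophages, and coro1a was also read in pigment cells.

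The gene with the largest fold over the other types, taking the smallest of its 3 libraries, marks another cell type. The transcript of lyz, a lysozyme that zebrafish neutrophils store in large amounts, stood at 39671, 13773 and 17789 RPM, above mfap4 in every library and at least 1037-fold above every other shared type. Further neutrophil genes were read with it. The peroxidase gene mpx was at 336, 37.4 and 88.4 RPM, the protease gene npsn at 947, 217 and 418 RPM, and the collagenase gene mmp13a at 219, 41.3 and 64.8 RPM. The neutrophil list of 18 genes summed to 44262, 15749 and 20475 RPM, and 4, 3 and 2 of its genes had no read, among them cxcr1 and cxcr2 in all 3 libraries. The label was therefore not borne out as it stands, and the tables are described below as those of the class named macrophages.

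Single cells were then chosen by marker genes, without the study's own list of the cells of the class. Cells with transcripts of at least 2 of the 4 markers, one of them mfap4 or mpeg1.1, and with 4 or more molecules (counted by unique molecular identifiers, UMIs) over the 4 were taken as macrophage-marker cells. There were 49 of 11043 cells after dissociation (0.444%, exact Clopper-Pearson interval 0.328 to 0.586), 27 of 4609 after FACS (0.586%, 0.386 to 0.851) and 72 of 9550 after FACS and ice (0.754%, 0.590 to 0.949). Such a gate is a range and not a cell type, and 9, 0 and 5 of these cells lay at its edge with 4 or 5 marker UMIs. Cells positive for at least 2 of mpx, npsn and 10 or more UMIs of lyz numbered 12, 3 and 11, and none of them was a macrophage-marker cell. A barcode was shared by 11, 28 and 12 cells of any 2 libraries, none of them a macrophage-marker cell.

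The leading genes of both kinds of cell were not high together in any of them. Each gate asked for its own genes, so high values of these follow in part from the choice of cells. Neither gate asked for the absence of the other's genes. Macrophage-marker cells held at most 1, 1 and 2 UMIs of lyz in the 3 libraries. One or more such UMIs were found in 6.12%, 3.70% and 12.5% of them, beside 5.08%, 2.75% and 7.30% of the other cells, which had fewer UMIs (median 8429, 9420 and 13078.5 against 2391, 3110 and 3969). In neutrophil-marker cells the median was 1819.5, 873 and 2098 lyz UMIs, and mfap4 and mpeg1.1 were at 0. Macrophage-marker cells held a median of 22, 28 and 35 mfap4 UMIs, and 91.9%, 96.7% and 97.2% of all mfap4 UMIs of the library. Neutrophil-marker cells held 97.0%, 96.9% and 96.9% of all lyz UMIs. Not every gene of the neutrophil list was split so. The list's gene lect2l had 125, 104 and 257 UMIs in macrophage-marker and 292, 102 and 519 UMIs in neutrophil-marker cells. Summed over the list, macrophage-marker cells had a median of 748, 841 and 722 CPM per cell, against 67.6, 0 and 0 CPM in other cells of like UMI number. Added together, both kinds of cell gave 33202, 14889 and 19870 lyz CPM (UMIs of a gene per 1000000 UMIs) and 2444, 2420 and 3029 mfap4 CPM, beside the table's values above, and neutrophil-marker cells made up 14.9%, 9.76% and 16.9% of the pooled UMIs. Other genes lay further apart, such as lcp1 with 351 CPM against 126 RPM after FACS and mpx with 145 CPM against 88.4 RPM after FACS and ice. Lists of cells for the deposited classes were not used here, so the tables' own mixture was not measured. Results from macrophage-marker cells are given below beside those of the tables.

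**Figure D2:**
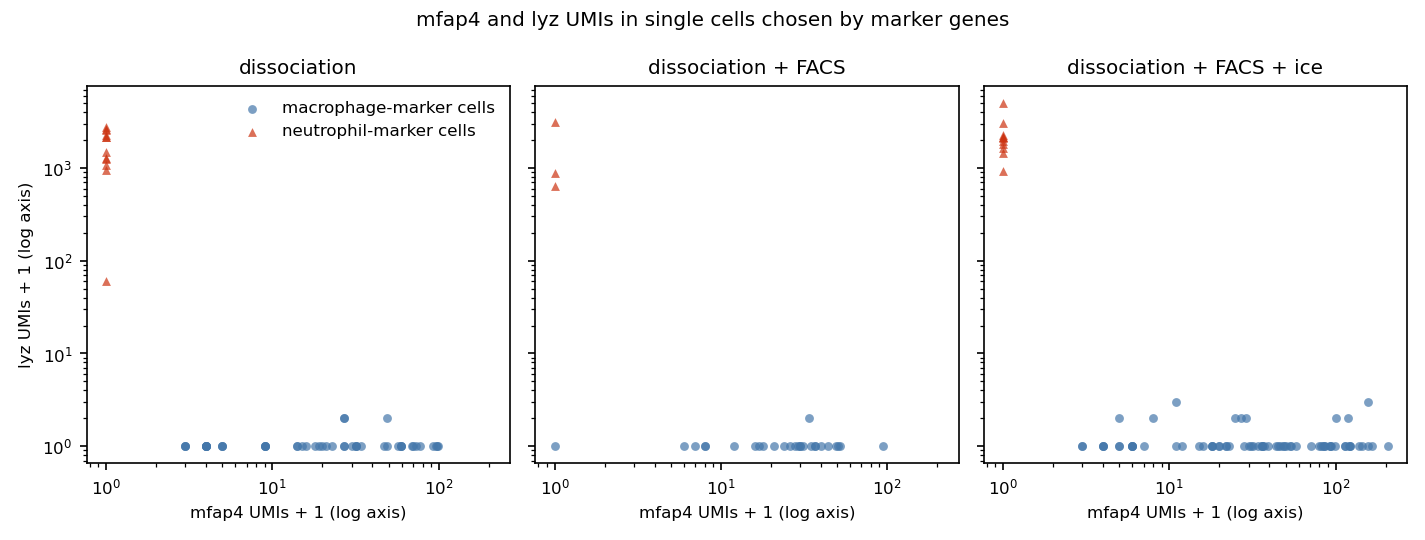
UMIs of mfap4 and lyz plus 1 (log axes) in single cells chosen by marker genes, with circles for macrophage-marker and triangles for neutrophil-marker cells, in the 3 libraries. No cell was high in both genes, and lyz stayed at 2 UMIs or fewer in every macrophage-marker cell.

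Several genes of the further macrophage list were read in macrophage-marker cells and hardly in others. The scavenger receptor gene marco stood at 140, 251 and 171 CPM in the 3 libraries, and the phosphatidylserine receptor gene havcr1 at 631, 945 and 700 CPM. The complement gene c1qb was at 102, 134 and 107 CPM. Other cells of like UMI number had at most 0.155 CPM of marco, 0.966 CPM of havcr1 and 0.0773 CPM of c1qb in any library. Neutrophil-marker cells had no UMI of marco or c1qb in any library, and 1 UMI of havcr1 after FACS. A lysozyme gene other than lyz, the goose-type lygl1, was at 1780, 2360 and 2388 CPM in macrophage-marker cells and at 0 in neutrophil-marker cells. The ligand gene ccl34b.1, a chemokine, was at 1520, 4179 and 1563 CPM and also at 0 in neutrophil-marker cells.

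Regulators were not all read in both kinds of cell. Neutrophil-marker cells held only 92122, 30576 and 208761 UMIs in the 3 libraries. Finding no UMI of a gene in them, most of all after FACS, thus sets only a loose limit on its level. The transcription factor genes irf8 and mafbb, needed in macrophage development, were at 51.1, 120 and 77.0 CPM and at 81.4, 166 and 91.6 CPM in macrophage-marker cells, with no UMI in neutrophil-marker cells. By contrast spi1b, the PU.1 gene of all myeloid cells, was at 187, 269 and 355 CPM in macrophage-marker cells and at 532, 392 and 326 CPM in neutrophil-marker cells. Its paralogue spi1a was at 64.4, 142 and 131 CPM against 10.9, 0 and 24.0 CPM. The adaptor genes fcer1gl and laptm5 were read in both kinds of cell. Of the 55 further macrophage genes, 46, 47 and 48 had a read in the class and 14, 22 and 23 reached 250, while csf1ra, the receptor gene of the growth factor CSF1, had 16, 122 and 84 reads. That is 5.59, 33.8 and 17 RPM, beside 12, 13 and 14 RPM in pigment cells, whose development also needs this receptor, and the gene was named after its values were seen.

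RNA of other tissues was present in the class and differed between libraries. The muscle list of 15 genes summed to 4536 RPM in the dissociation library, to 38.5 RPM with sorting and to 109 RPM with sorting and ice, beside a median of 5678, 165 and 136 RPM over the other types. Its level was thus high after dissociation in the other types too. The 14 epidermis genes summed to 3473, 162 and 221 RPM and the 19 erythroid genes to 15007, 27416 and 15864 RPM. Of the 12 endothelial genes none reached 250 reads. Mitochondrial genes took 2.39%, 1.28% and 1.75% of the reads. In macrophage-marker cells of the FACS library, 1 cell held 89.8% of the erythroid UMIs, and 1 cell of the FACS and ice library held 91.6% of the epidermis UMIs.

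Labelling was asked first of the class as a whole. The median T-to-C rate over genes was 0.0674%, 0.0780% and 0.0985% of T positions in the dissociation, the FACS, and the FACS and ice library, which was 2.13, 2.79 and 3.03 times the median of the other 11 substitution types. Only C-to-T, at 0.182%, 0.207% and 0.205%, and after dissociation one further type, had a higher median. The median of A-to-G was 0.0572%, 0.0612% and 0.0681%, nearer to T-to-C than the median of the other types was. Over the same 779 genes the medians were 0.0686%, 0.0730% and 0.0843%, so that the FACS library stood 1.06 and the FACS and ice library 1.23 times above dissociation, while A-to-G stood at 1.01 in both. The rate was above dissociation in 49.3% and 61.7% of the genes, and the order-statistic intervals of the medians overlapped, with 0.0613% to 0.0793%, 0.0627% to 0.0866% and 0.0771% to 0.0971%. Each of the 12 shared types had a higher T-to-C median after FACS and ice than after dissociation. Each type was compared over its own genes with 250 reads in all 3 libraries. The ratio of the class named macrophages was the lowest of the 12. Its A-to-G ratio of 1.01 was also the lowest, and the other types ran from 1.03 in blood vessels to 1.199 in nervous system. The low rank of the class was thus not limited to T-to-C, and whether it reflects labelling was not tested. How many T positions stand behind a rate is not given in the tables, so single rates carry no interval and the number of reads is the only measure of their depth.

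Against other cell types the same genes were compared, since a fixed sequence difference then enters every type alike. Over the 448, 440 and 401 genes with 250 reads in each of the 12 types, the class had medians of 0.0611%, 0.0611% and 0.0755%, and the median of the other types was 0.0549%, 0.0583% and 0.0704%. The ratio was 1.11 (0.962 to 1.29), 1.05 (0.867 to 1.25) and 1.07 (0.918 to 1.19), while A-to-G gave 1.00, 0.994 and 0.984. The intervals are those of the class median over genes, with the median of the other types held fixed, and all include 1. The class ranked the highest of the 12 after dissociation and after FACS and ice, and had 2 types above it after FACS, where retina led with 0.0673%. With 1000 reads required, the ratio after FACS and ice was 0.989. Labelled entries count roughly UMIs, so entries per 100 reads also depend on the reads per UMI. Over these genes, without haemoglobin and rps15a, the class had 0.108 entries per 100 reads after dissociation. The lowest type there was pharynx with 0.0823 and the highest was blood with 0.318. By this measure the class was the lowest of the 12 types after FACS (0.0405) and above only 2 types after FACS and ice (0.188). These distances are small, and no replicate shows how far a type would move between suspensions.

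**Figure D3:**
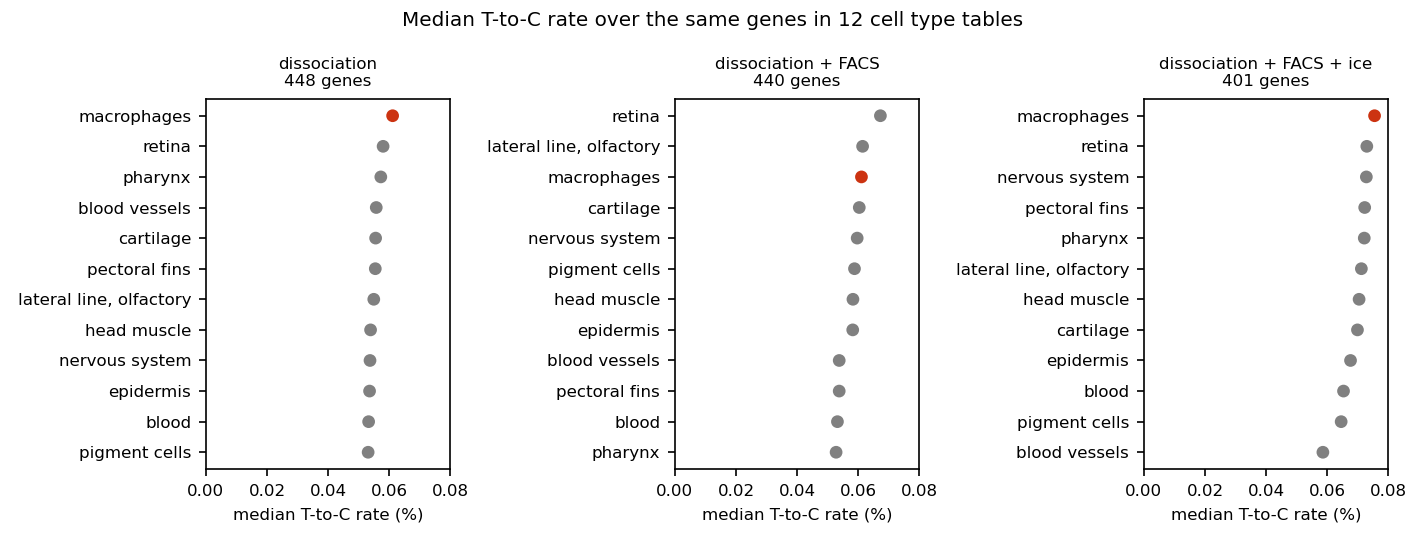
Median T-to-C rate in percent over the genes with 250 or more reads in all 12 cell types of a library (448, 440 and 401 genes), 1 point per cell type, in descending order. The class named macrophages (red) was at the top after dissociation and after FACS and ice and below 2 other types after FACS, with rates from 0.0611% to 0.0755%.

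In single cells labelling was counted per gene found. A gene found in a cell counts as labelled if at least 1 of its UMIs carried 2 or more T-to-C substitutions. Macrophage-marker cells had 3.55% (3.42 to 3.67), 4.69% (4.5 to 4.88) and 5.48% (5.37 to 5.60) of their gene detections labelled in the 3 libraries. Other cells whose UMI number lay within the middle range of the macrophage-marker cells, from their lower to their upper quartile, had 2.91%, 3.89% and 4.28%. Their median was 5980.5, 9423 and 12446 UMIs, against 8429, 9420 and 13078.5 in macrophage-marker cells. They held at most 14991, 12072 and 17289 UMIs, while macrophage-marker cells, all kept, reached 53804, 26792 and 38991. More UMIs give more chances of a label, and the part of depth in these shares was not tested. Among macrophage-marker cells the share ran from 0.606% to 5.51%, from 2.00% to 8.09% and from 1.45% to 9.97%, with medians of 3.39%, 4.64% and 4.94%. Detections of 1 cell and of 1 library are not independent, so these intervals are too narrow. Neutrophil-marker cells stood at 3.33%, 4.1% and 6.0%.

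Rates of single genes were then compared with those of the other types. The rate in the class was above their read-weighted mean, by any amount, in 48.0%, 45.4% and 46.9% of the genes compared in the 3 libraries. A gene was counted when its T-to-C rate lay 0.2 percentage points or more above the read-weighted mean of the other 11 shared types. This held for 32 of 848 genes after dissociation (3.77%), 48 of 907 after FACS (5.29%) and 47 of 1150 after FACS and ice (4.09%), and a rate 0.2 points or more below for 1.06%, 3.42% and 1.83%. For A-to-G, 12, 18 and 18 genes lay above and 12, 18 and 9 below. For C-to-T, which does not mark 4sU, 48, 67 and 62 genes lay above and 33, 57 and 34 below. Counts of this size were thus not limited to T-to-C. Of the heat shock list, 5 of 11, 6 of 13 and 8 of 15 genes compared lay above and 0 below, and the median difference of the list was 0.192, 0.176 and 0.320 percentage points, beside -0.000791, -0.00333 and -0.00281 over all genes. In all 3 libraries 6 of 734 genes (0.817%) lay above by this measure, namely hsp70.1, hsp70l, hsp90aa1.2, mcl1a, sat1a.2 and ptgr1, and none lay below.

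The chaperones made on heat or misfolded protein differed in how far they stood apart. Rates of the inducible chaperone gene hsp70l were 2.97%, 3.25% and 3.81% in the class against 2.28%, 2.66% and 2.75% in the other types, on 1099, 2258 and 2795 reads. For hsp70.1 they were 2.27%, 3.33% and 3.65% against 1.66%, 2.22% and 2.41%. The gene of the inducible HSP90, hsp90aa1.2, had 4.57%, 3.62% and 6.15% against 3.58%, 2.90% and 4.09%. All 3 genes were above the mean of the other types in every library. The co-chaperone gene dnajb1b had 6.1% against 3.1% after FACS and 5.73% against 3.33% after FACS and ice, where the class was above each of the 11 other types, and 4.16% against 2.93% after dissociation on 123 reads only. The constitutive hspa8, in comparison, was at 0.101%, 0.138% and 0.139% in the class, under the other types' 0.127%, 0.146% and 0.163%.

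Reads of hsp70l and hsp90aa1.2 were not highest in the class. The comparison is with the highest of the other shared types, so it shows only that the class was not at the top. For hsp70l the table held 384, 626 and 564 RPM, beside 676, 1576 and 1731 RPM in the highest other type. The inducible hsp90aa1.2 was at 298, 305 and 593 RPM, beside 755, 1290 and 2203 RPM. Summed over the heat shock list, macrophage-marker cells had a median of 7451, 10302 and 10641 CPM per cell in the 3 libraries, and other cells of like UMI number had 8034, 10252 and 11527 CPM.

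Few early response genes had enough reads, and those that did had higher rates than the other types. The immediate early gene ier2b stood at 6.05% after FACS and 5.43% after FACS and ice against 1.83% and 2.35% in the other types, on 258 and 323 reads, and at 1.19% against 0.979% after dissociation on 185 reads. In mcl1a, a short-lived survival gene of the BCL2 family, the rates were 0.984%, 1.72% and 1.59% against 0.428%, 0.820% and 0.790%, and each of the 11 other types lay below the class in every library. Its A-to-G rate of 2.44%, 2.35% and 2.26% was as high in the other types (2.49%, 2.38% and 2.29%). The transcription factor genes fosab and id1 had 3.91% and 2.71% after FACS against 2.99% and 0.892%, and fosab had 4.22% against 3.81% after FACS and ice. Of the genes of this list with enough reads in both, 1 of 1, 4 of 4 and 3 of 3 lay above and none below. Over all genes compared, 3.77%, 5.29% and 4.09% lay above. The median difference of the list was 0.556, 1.37 and 0.796 percentage points. Most of the 62 genes of the list had under 250 reads in the class. Summed over the list, macrophage-marker cells had a median of 1269, 1592 and 1636 CPM per cell, against 928, 1092 and 1046 CPM in other cells of like UMI number.

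The inflammatory and the endoplasmic reticulum stress list had few genes to compare. Over all genes compared, 3.77%, 5.29% and 4.09% lay above and 1.06%, 3.42% and 1.83% below in the 3 libraries. Of the inflammatory list 1 of 2, 1 of 4 and 1 of 3 genes compared lay above, and 1 lay below after FACS. The rate of sat1a.2, which encodes an enzyme of polyamine breakdown, was 0.598%, 0.714% and 1.31% against 0.0835%, 0.181% and 0.279%, with every compared type below the class. The transcription factor gene cebpb, active in myeloid cells, had 0.594%, 1.35% and 1.05% against 0.347%, 0.568% and 0.871%, with only 1 other type to compare and a difference under 0.2 points after FACS and ice. For nfkbiab, an inhibitor of NF-kB that NF-kB itself induces, the rate was 2.58% against 0.714% after FACS and ice, 0.880% against 0.402% after dissociation on 213 reads, and 0.768% against 0.599% after FACS on 280 reads, a difference under 0.2 points. The haem oxygenase gene hmox1a had 0.948% against 0.129% after dissociation but 0.155% against 0.152% after FACS and 1.13% against 1.09% after FACS and ice. Of the genes of the endoplasmic reticulum stress list, 1 of 5, 0 of 7 and 3 of 12 lay above and 0, 2 and 0 below, with the chaperone gene hsp90b1 at 1.56% against 0.733% after FACS and ice. The reductase gene ptgr1 had rates of 0.950%, 1.39% and 0.929% against 0.265%, 0.535% and 0.344% but not a single labelled entry in the class in any library.

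**Figure D4:**
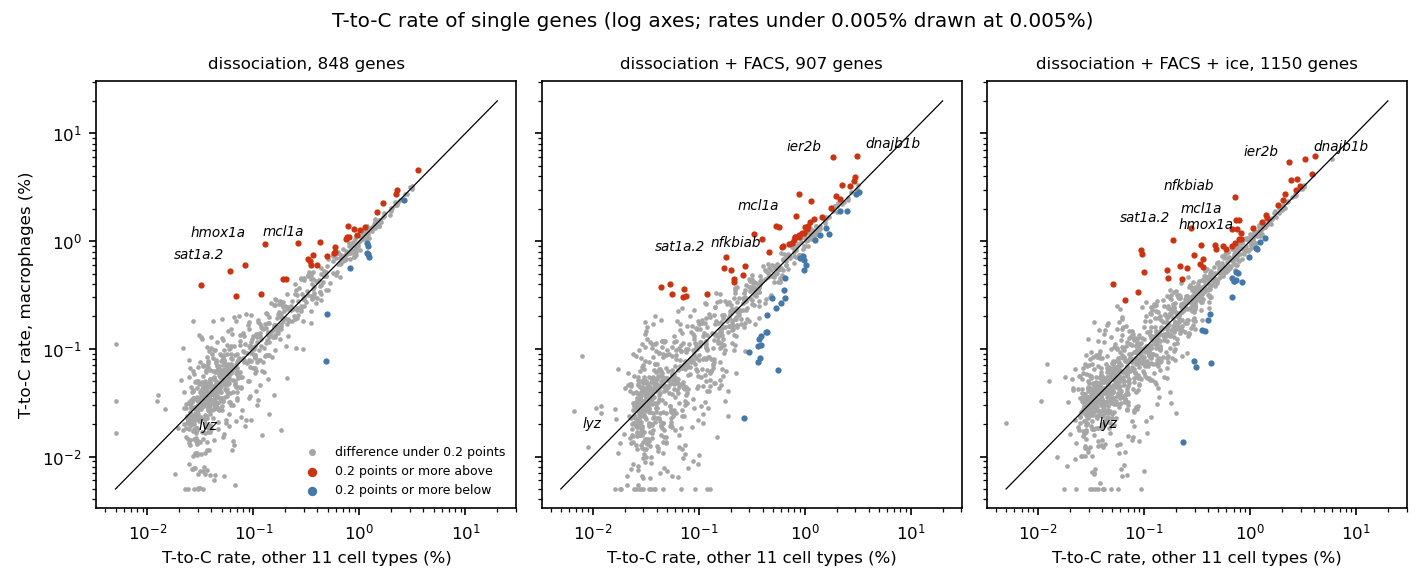
T-to-C rate of each gene in the class named macrophages against the read-weighted mean of the other 11 shared types (log axes, percent), for 848, 907 and 1150 genes with 250 or more reads in both. Points 0.2 percentage points or more above (red) include ier2b, dnajb1b, mcl1a and sat1a.2, and lyz lies near 0.026% in all 3 libraries.

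Among genes that mark the cells of the class, rates ran from far below to far above the class median. The median over the 4 markers was 0.387%, 0.317% and 0.634%, but of these genes only 2, 1 and 1 had enough reads elsewhere to compare, 0 lay above the other types, and coro1a lay below after FACS. In the class lyz had a T-to-C rate of 0.0251%, 0.0265% and 0.0260% on 113533, 49713 and 88105 reads, under the class median in each library. The rate of ccl34b.1 was 0.0326%, 0.0281% and 0.0291%, and none of 37, 23 and 50 macrophage-marker cells with the gene had a labelled transcript, so that up to 9.49%, 14.8% and 7.11% are allowed. For mfap4 the rate was 3.06%, 3.37% and 3.23%, but its few reads in other types gave 3.15%, 2.97% and 3.32%, and its A-to-G rate was 1.86%, 1.69% and 1.56% in the class. Several near-identical mfap4 copies exist in the files under the name MFAP4 (1 of many), so reads of this gene may be split between copies and its label is uncertain. The second PU.1 gene spi1a had a labelled transcript in 0 of 18, 0 of 20 and 13 of 52 macrophage-marker cells with the gene.

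The genes mcl1a, sat1a.2 and cebpb were labelled in a larger share of macrophage-marker cells than of other cells. These counts come from the same libraries as the rates above, so they are a recount and no independent support. Cells of 1 library are not replicates, and the intervals cover counting error only. Of the cells with mcl1a, 7 of 39 (17.9%), 19 of 26 (73.1%) and 45 of 66 (68.2%) had a labelled transcript, against 5.55%, 15.9% and 15% of the other cells of like UMI number. The intervals of both groups did not overlap in any library, but macrophage-marker cells also held more mcl1a, with 7.00, 8.12 and 10.7 UMIs per cell with the gene against 2.33, 2.94 and 3.35, and more UMIs give more chances of a label. For sat1a.2 the counts were 5 of 39 (12.8%), 6 of 25 (24.0%) and 26 of 62 (41.9%) against 1.03%, 2.12% and 4.80%, with 4.87, 4.68 and 5.60 UMIs per cell against 1.73, 2.56 and 2.83. The gene cebpb was labelled in 6 of 32, 11 of 25 and 25 of 57 cells, which is 18.8%, 44.0% and 43.9% against 10.7%, 7.14% and 14.0%, with intervals apart in both sorted libraries and 4.06, 5.76 and 7.12 UMIs per cell against 1.56, 2.41 and 2.02.

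Not every early gene stood apart in this measure. For ier2b 5 of 20, 11 of 18 and 20 of 38 cells were labelled, or 25%, 61.1% and 52.6% against 16.2%, 29.4% and 32.2%, and the intervals overlapped in each library. Here macrophage-marker cells held no more UMIs per cell than the others, with 1.60, 1.67 and 2.14 against 1.95, 3.16 and 2.27. The heat shock gene hsp70l was labelled in 25 of 35 (71.4%), 24 of 26 (92.3%) and 62 of 68 cells (91.2%) against 63.7%, 85.3% and 87.8%, again with overlapping intervals. For hsp90aa1.2 only the library after FACS and ice had intervals apart, with 61 of 64 cells (95.3%, 86.9 to 99.0) against 82.2% (79.8 to 84.4). The iron store gene fth1a was labelled in 5.56%, 8.33% and 21.9% of macrophage-marker cells and in 4.64%, 5.99% and 24.6% of the others.

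**Figure D5:**
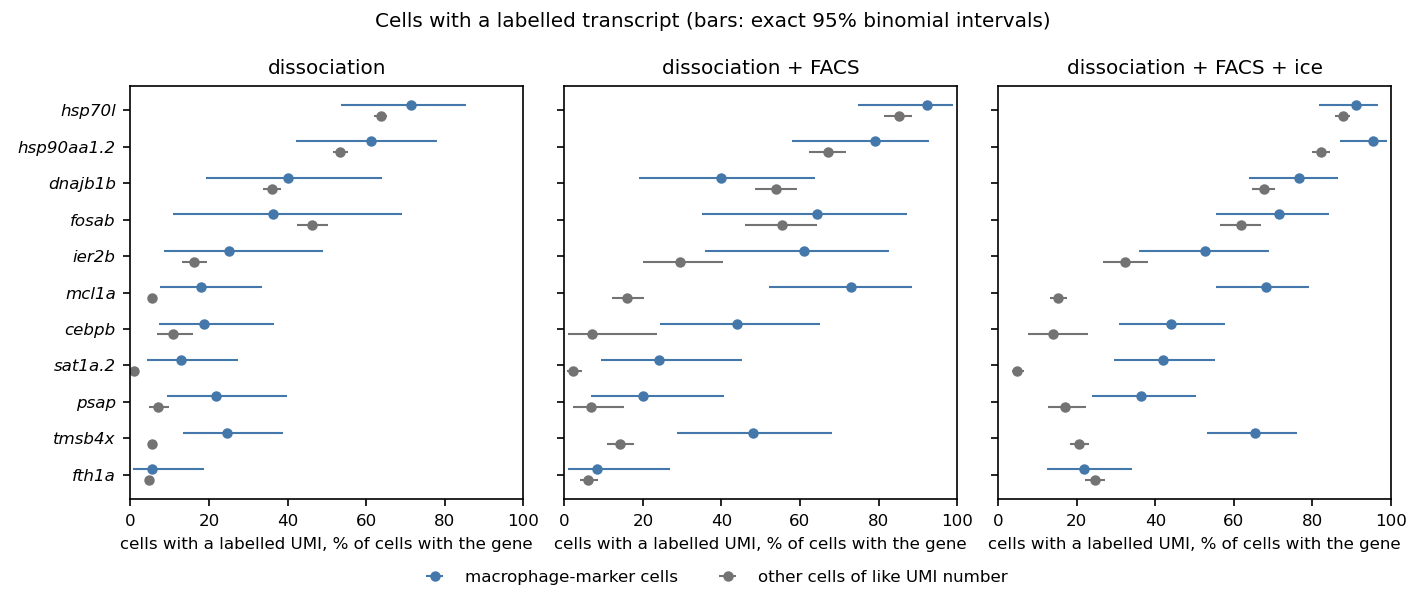
Cells with a labelled UMI in percent of the cells with the gene, for 11 genes, in macrophage-marker cells (blue) and other cells of like UMI number (grey), with exact binomial intervals. The intervals are apart for mcl1a and sat1a.2 in all 3 libraries and overlap for hsp70l and ier2b in all 3.

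Few genes of the class were highly labelled, taken here as 10 or more labelled entries per 100 reads on 250 or more reads. The study instead asks for labelling in over 10% of UMIs or, in a figure legend, in 10% or more of reads. Entries count roughly UMIs, so a gene with several reads per UMI reaches 10 per 100 reads less easily than 10% of UMIs. How many genes meet the study's own criterion was not tested. The measure used here was met by 5 genes after dissociation (0.562%), 0 in the FACS library (0.0%) and 14 with ice added (1.14%). The embryonic globin gene hbae1 led after dissociation with 53.5 entries per 100 reads, followed by hsp70.2 with 13.4, the ribosomal gene rps15a with 11.6, hsp70.3 with 11.2 and hsp70l with 11. All 5 met it again after FACS and ice, together with hsp70.1 at 20.3, fosab at 15.8, dnajb1b at 14.4, ier2b at 12 and the lysosomal hexosaminidase gene hexb at 11.5. Further members were mt-nd3, pclaf, mfap4 and the copies named MFAP4 (1 of many), the last with 44.7. Entries of the labelled table count roughly UMIs and the other table counts reads, and a UMI had the most reads in the FACS library, so its count of 0 is not set against the others. For rps15a the other types had a like number, 11.4 and 11.7 entries per 100 reads after dissociation and after FACS and ice, and a T-to-C rate of 3.17% and 3.24% against 3.27% and 3.32% in the class. The globin gene hbae1 is a gene of red blood cells, led by the blood class with 165821 and 152871 RPM in these libraries. The class named macrophages held 0.223% and 0.379% of all hbae1 reads, yet hbae1 gave 54.5% and 28.9% of its labelled entries over genes with 250 reads.

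Reads of most genes differed little between the libraries. From dissociation to FACS, 19 of 782 genes were 2-fold or more higher (2.43%) and 22 lower (2.81%). From dissociation to FACS and ice it was 9 (1.09%) and 23 (2.79%) of 825 genes, and scaling by the median of ratios made the split 13 higher and 19 lower. From FACS to FACS and ice it was 8 (0.852%) and 12 (1.28%) of 939 genes. The neutrophil list had a median ratio of 0.434 from dissociation to FACS over 7 genes (4 of them 2-fold lower) and 0.448 to FACS and ice over 9 genes (5 of them 2-fold lower), beside 0.949 and 0.943 over all genes. Beside these values, 12, 3 and 11 neutrophil-marker cells were found in the libraries, and their part in the ratios was not tested.

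Among macrophage genes the chemokine gene ccl34b.1 stood out, with 1235, 3509 and 1294 RPM. In macrophage-marker cells it was 2.75-fold higher after FACS than after dissociation (2.51 to 3.01), and at 0.374 of that level after FACS and ice (0.347 to 0.404). In each library 1 cell held 22.5%, 21.7% and 13.0% of these UMIs. The 4 markers did not differ by 2-fold in any pair of tables, and marco stood at 133, 199 and 108 RPM. Both the microtubule gene tppp, at 106, 186 and 301 RPM, and the unnamed gene BX649485.2, at 307, 267 and 981 RPM, were highest after FACS and ice. In macrophage-marker cells tppp was 3.22-fold above dissociation after FACS already (2.45 to 4.25), with a ratio of 1.02 of FACS and ice to FACS (0.852 to 1.24), and for BX649485.2 that last ratio was 3.56 (2.87 to 4.45).

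A minority of the lysosomal genes was 2-fold lower after FACS and ice. The list had a median ratio of 0.635 against dissociation over 12 genes and of 0.718 against FACS over 15 genes, with 4 and 3 genes 2-fold lower and none 2-fold higher. Over all genes tested the median ratios were 0.943 and 0.990, with 2.79% and 1.28% 2-fold lower and 1.09% and 0.852% 2-fold higher. The 4 lysosomal genes lower against dissociation were the protease genes ctsd (581, 470 and 255 RPM), ctsla (516, 290 and 219), ctsl.1 (197, 217 and 96.9) and ctsz (219, 138 and 108). In macrophage-marker cells alone the ratio of FACS and ice to dissociation was 0.625 for ctsd (0.541 to 0.721) and 0.565 for ctsla (0.483 to 0.662), of whose dissociation UMIs 1 cell held 48.5%. It was 0.691 for ctsz (0.552 to 0.866) and 0.767 for ctsl.1 (0.594 to 0.993), while cd63 at 1.01 (0.897 to 1.14) and the proton pump gene atp6v0ca at 0.990 (0.869 to 1.13) differed by less than counting error. The protease gene ctsba and the saposin precursor gene psap were instead highest after FACS, at 378, 802 and 261 RPM and at 130, 271 and 131 RPM. In macrophage-marker cells ctsba was 2.54-fold higher after FACS than after dissociation (2.16 to 3.00), and 1 cell held 27.3% of its UMIs after FACS. Per macrophage-marker cell the whole lysosome list had a median of 5747, 6306 and 5070 CPM, against 878, 777 and 791 CPM in other cells of like UMI number.

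Of the 52 heat shock genes, 11 had enough reads to be compared with dissociation and 13 from FACS to FACS and ice. None of these reached a 2-fold difference between the tables. The gene dnajb1b was not among the 11, for want of reads after dissociation. The median ratio over 11 genes was 1.43 for FACS and ice against dissociation and 1.1 for FACS against dissociation. In macrophage-marker cells hsp90aa1.2 in the FACS and ice library was 2.32-fold above dissociation (1.95 to 2.77), hsp70l 1.95-fold (1.68 to 2.25) and dnajb1b 3.85-fold (2.86 to 5.28). Not all members moved so, since hspd1 had a ratio of 1.02 (0.746 to 1.41), the co-chaperonin gene hspe1 0.967 (0.826 to 1.14) and the ubiquitin gene ubc 0.809 (0.711 to 0.921). Other cells of like UMI number had 382, 558 and 852 CPM of hsp90aa1.2, and macrophage-marker cells 299, 340 and 694 CPM.

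The haem oxygenase gene hmox1a, which breaks down haem from engulfed red blood cells, was carried by a few cells. Its reads stood at 462, 415 and 68.9 RPM, and 15 of 49, 6 of 27 and 26 of 72 macrophage-marker cells had a UMI. After dissociation 1 cell with 21611 UMIs held 219 hmox1a UMIs, 54.5% of those in all macrophage-marker cells, and its haemoglobin share was 16.3%. After FACS 1 cell with 26792 UMIs held 184 hmox1a UMIs, 81.1% of all, with a haemoglobin share of 24.4% and 95 UMIs of ctsba. Both cells also held 114 and 50 UMIs of the 4 markers. The other dissociation cell with a share of 5% or more (6.15%) had no UMI of hmox1a. Cells with 81 and 61 UMIs of hmox1a after dissociation had a haemoglobin share of 0.380% each. After FACS a cell with 31 UMIs of hmox1a had a share of 0.0635%. After FACS and ice 4 cells had a haemoglobin share of 5% or more, up to 26.1%, but only 1 UMI of hmox1a among them, and the highest hmox1a cell held 19.7% of the UMIs.

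In other cells hmox1a was counted at the same haemoglobin share. Other cells of like UMI number with a haemoglobin share of 5% or more numbered 429, 51 and 138 and held 2, 0 and 1 UMIs of hmox1a in all. Red blood cells were not removed from this set, and which cell types it held was not tested. With cells of such a share left out, macrophage-marker cells had 404 (348 to 467), 168 (122 to 226) and 158 (134 to 186) CPM of hmox1a, beside 8.15, 1.07 and 6.02 CPM in the like other cells. Only 14 of 47, 5 of 26 and 25 of 68 of these macrophage-marker cells had a UMI, with 183, 43 and 146 UMIs in all. Cells with 81 and 61 UMIs after dissociation and with 31 after FACS were among them, so the intervals are too narrow. The threshold of 5% was chosen after the values were seen. Whether these barcodes held 1 cell or several was not tested.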

How the data were processed

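Single-cell libraries of 3 suspensions of zebrafish larvae were analysed, 1 per condition. The authors demultiplexed, aligned and counted the reads against GRCz10 (bcl2fastq 2.19, Cell Ranger 6.1.1 and SAMtools 1.14 per the submitters' processing notes), kept bases of quality 20 or more, clustered the cells with Seurat and summed reads per cell type. The deposited tables hold counts of reads or of labelled entries (2 or more T-to-C substitutions) per gene, and substitution rates, deposited as a ratio of substituted to all covered positions. Deposited matrices hold counts of UMIs per cell. No variant filter is stated for the single-cell tables.

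Reads were scaled to RPM of the table. UMIs of identifiers with 1 symbol were summed, and names joined from several genes were left out. Rates were compared with the read-weighted mean of the other 11 types. Clopper-Pearson and Poisson intervals were computed at 95% (Python 3.11.15, numpy 2.4.6, pandas 2.3.3, scipy 1.17.1, matplotlib 3.10.9), and the code was tested on simulated data. No doublet caller was run. Differences of 2-fold or more needed 250 reads in both tables. The genes named were the 4 markers, members of 23 gene lists with 250 or more reads, the 10 genes highest in labelled entries and in rate difference per library, the 10 most enriched, and the 5 highest and 5 lowest ratios between libraries. The members and lists were chosen with earlier results of these data known. The neutrophil-marker gate and the haemoglobin threshold of 5% were chosen after values were seen.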

Additional observations from a re-analysis of the deposited data

Results flagged for a closer look

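Barcodes outside the called cells, which no comparison used, also held labelled transcripts. In the FACS library, 2.68% of all gene detections in such barcodes were labelled. For mfap4 it was 45 of 125 detections (36.0%), and for lyz 1 of 1323. As stated above, the label of mfap4 is uncertain, so its share is not read as newly made RNA.

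Names joined from several genes were left out of all comparisons, and some carried many labelled entries in the class. The joined name snrpd3;p2rx4b had 25.8 entries per 100 reads in the dissociation library, 12.9 with sorting and 27.6 with sorting and ice. The joined name zgc:136864;vps54 had 28.2 entries per 100 reads after FACS and ice, or 81 on 287 reads.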

How the results depend on the processing

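Of 102 alternative values, 53 stayed within the spread or margin set for them and 49 moved further. Among the former, the T-to-C ratio of the class over the other types after FACS and ice went from 1.07 to 0.989 with 1000 reads. The median T-to-C rate was 0.0549%, 0.0585% and 0.0781% with 1000 reads in the dissociation, the FACS, and the FACS and ice library, 0.129% with 100 reads after FACS and ice, 0.0843% there over genes read in all 3, and 0.287%, 0.321% and 0.347% as a read-weighted mean without haemoglobin. Highly labelled genes numbered 11, 2 and 26 with 100 reads, 14, 3 and 29 at 5 entries per 100 reads, 1 after dissociation and 5 after FACS and ice at 20 entries, and 1 after FACS with joined names kept. By alternatives chosen after seeing the data, the genes with higher T-to-C rates numbered 81, 101 and 121 at 0.1 percentage points, 9, 15 and 16 at 0.5, 13, 18 and 26 against the highest other type, and 5, 10 and 10 with 1000 reads. The labelled share after dissociation was 3.78% with 3 of the 4 markers required, 3.72% with 8 marker UMIs and, chosen after seeing the data, 3.77% in cells of 5000 UMIs or more.

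From dissociation to FACS, 35 genes were higher and 69 lower with 100 reads, 12 and 4 with 1000 reads, and 48 and 14 by UMIs of macrophage-marker cells, also chosen after seeing the data. The last 2 turned the balance of 19 higher and 22 lower. To FACS and ice it was 21 and 62, 4 and 7, and 18 and 54. From FACS to FACS and ice it was 37 and 50, 2 and 2, and 39 lower by UMIs. The cause was not tested. No paired analysis was possible because each condition had 1 library. With 1 library per condition, differences between suspensions and between conditions cannot be told apart, and 27 to 72 macrophage-marker cells limit what single cells can show.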
